A study of Homo sapiens with 6 samples.

Results

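The DNA replication machinery is described here by 50 genes, named in a list of licensing, fork and nucleotide supply factors, among the 13117 genes of the deposited table. All 50 were listed and all 50 passed the filter on low values, which kept the 11526 genes that reached an FPKM of 1 in 3 or more of the libraries. FPKM sets the fragments of a gene against its transcript length and the size of the library, so levels can be compared between genes. The members fall into 13 subgroups by role, from the origin recognition complex to the enzymes that make deoxynucleotides.

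The cells were SNU449, a human hepatocellular carcinoma line. All 6 libraries came from cells with pInducer20-FOXO1AAA, a doxycycline-inducible vector for FOXO1AAA, a FOXO1 transcription factor whose AKT phosphorylation sites are replaced by alanine. The genotype field reads WT for all of them. The 3 Cont libraries came from cells kept without doxycycline, and the 3 Dox libraries from cells given 2 µM doxycycline hydrochloride for 48 h. No group received doxycycline without the construct, so an effect of the drug cannot be told apart from one of the construct. Neither clones nor separate cultures are stated, so p-values rest on the spread of these samples alone, and that spread may be technical. In bulk RNA, fewer cells in S phase and less RNA per cell cannot be told apart either.

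Replication begins when the origin recognition complex (ORC), with CDC6 and CDT1, loads the MCM2-7 helicase onto DNA in G1, a step called licensing that geminin blocks later in the cycle. The kinase CDC7 with DBF4, and cyclin-dependent kinases, then recruit CDC45 and GINS, which turn the loaded helicase into an active fork. Polymerases alpha, epsilon and delta copy the strands with the clamp PCNA, its loader RFC and the single-strand binding protein RPA. Many of these genes are transcribed at the G1/S transition by E2F factors, and some subunits are kept at steady levels through the cycle.

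Depth is not given as such, and the steps of the lowest values placed the libraries at 28.5 to 47.1 M reads on a rough scale set by transcript length. On that scale the reads implied for all listed genes came to 2.28 to 2.42 times the totals, so the absolute numbers are uncertain. The lowest member in any library, PRIM1, stood at about 47.4 reads. Of 14 hepatocyte markers, 6 had values, with a summed FPKM of 175 to 237 in Cont and 20.8 to 22.9 in Dox, most of it fibrinogen. ALB was at 0.321 ± 0.239 and 1.19 ± 0.459 (SD, n = 3), and HNF4A, TTR and APOA1 were not analysed here. The 4 mesenchymal markers were split, with VIM (906 ± 7.83 and 291 ± 33.6) and CDH2 (44.2 ± 0.773 and 21.1 ± 2.17) lower and FN1 (1.37 ± 0.483 and 7.58 ± 0.507) and ZEB1 (7.66 ± 0.346 and 11.8 ± 0.792) higher in Dox. Of 5 fibroblast or stellate markers, the 2 with values, COL1A1 (10.97 ± 1.25 and 2.75 ± 0.671) and COL1A2 (202 ± 13.86 and 44.5 ± 8.32), were lower. Among 5 liver progenitor or tumour markers, 2 had values and both were lower in Dox. They were AFP (13.4 ± 5.27 and 6.21 ± 2.12, with overlapping groups) and SOX9 (30.6 ± 3.43 and 19.9 ± 0.628). Of 3 endothelial markers, 2 had values, with sums of 0.975 FPKM or less in each library. None of 4 immune markers had a value. The part of these marker shifts in the replication values was not tested. FOXO1 rose from 0.802 ± 0.0777 to 2.79 ± 0.748 (limma adjusted p = 9.84e-05). Whether it includes construct reads was not tested.

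Nearly the whole replication machinery was lower in Dox. Of the 50 genes, 45 fell, 1 rose and 4 did not pass the test (limma on log2(FPKM + 1), adjusted p under 0.05). Among all genes tested, 42.8% fell and 37.6% rose, so change itself was common in this comparison. The falls of the replication genes were large beside that background: 24 of the 50 fell by at least 2 in log2, that is 4-fold, against 3.76% of all genes tested. In 44 members all 3 Dox values lay below all 3 Cont values, against 43.7% of all genes tested. The 44 include ORC1, which passed the filter through its Cont values alone. In 1 member, ORC4, they lay above, against 38.4%. The median log2 change was -1.97 for the members and -0.06 for all genes tested. Summed over the 50 genes, FPKM came to 0.570 ± 0.0339% of the library total in Cont and 0.213 ± 0.0225% in Dox (SD, n = 3).

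A change of the total used for scaling moves the changes of all genes together. Mitochondrially encoded transcripts made up 3.73 ± 0.855% of all FPKM in Cont and 14.1 ± 0.7996% in Dox. In TPM, which gives every library the same total, computed over nuclear genes only (nuclear TPM), the median of all genes moved from -0.06 to 0.22, and higher genes made up 60.2% of the calls in place of 46.7%. With that scaling 44 members were lower and 4 higher, and the member median was -1.76. The 44 members that fell in every setting that tested them were all but ORC3, ORC4, ORC5, ORC6, RPA3 and RRM1, and ORC4 rose in every setting.

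**Figure D1:**
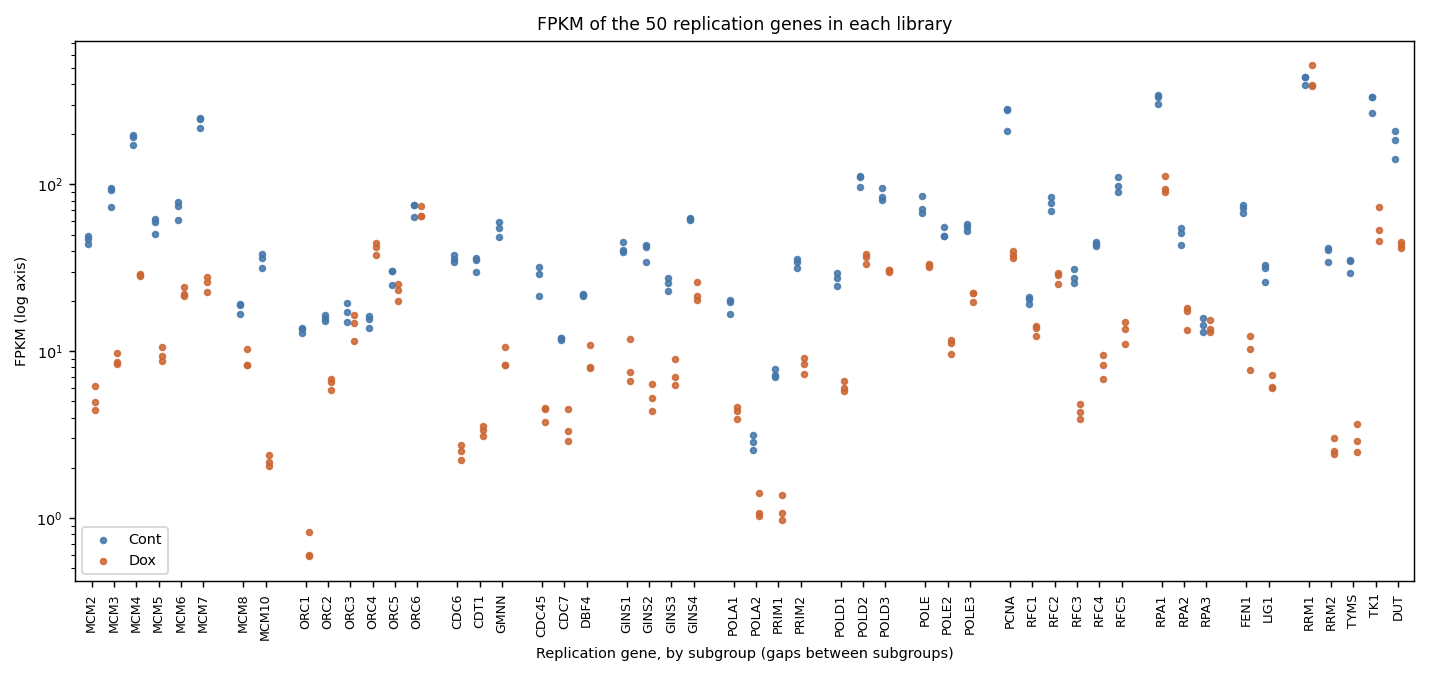
FPKM (log axis) of the 50 replication genes in the 3 Cont and 3 Dox libraries, 1 point per library, with gaps between subgroups. In 44 genes the Dox points lie below all Cont points, in ORC4 they lie above, and in ORC3, ORC5, ORC6, RPA3 and RRM1 they overlap.

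**Figure D2:**
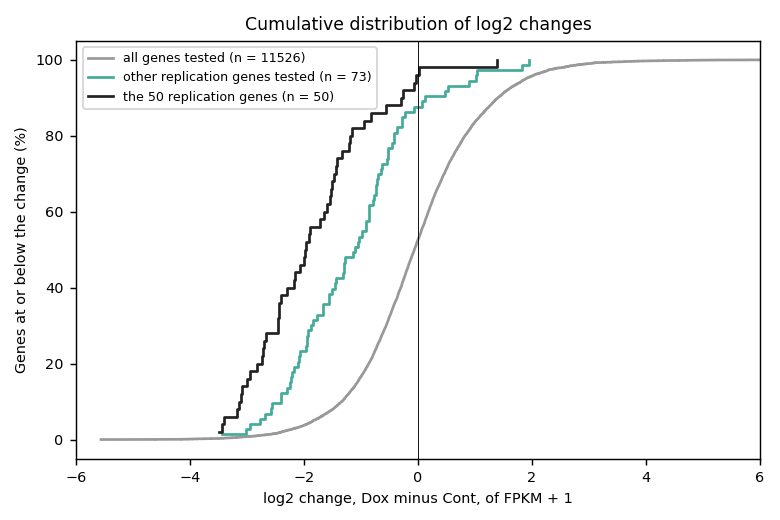
Cumulative share of genes (%) against the log2 change of FPKM + 1, Dox minus Cont, for the 50 replication genes, 73 other replication genes and all 11526 genes tested. The curve of the 50 genes is shifted to the left, with a median of -1.97 against -0.06 for all genes.

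Promoter sequences are shown for 6 members to set the strongest falls beside the origin recognition genes that rose or fell least. The windows are those of RefSeq (GRCh38.p14) and run 5′ to 3′ from 250 bases before to 50 bases after an annotated start. RefSeq windows were given for 44 of the 50 members. The first window listed for each gene is printed, on the strand of the gene, with every match to a searched motif in capitals. The motifs were the E2F letters TTTCCCGC, TTTCGCGC, TTTGCCGC and TTTGGCGC, the CHR element TTTGAA, the box CCAAT, and the forkhead letters GTAAACA or ATAAACA, each on both strands. MCM10 (chr10:13161308-13161607, plus strand) and RRM2 (chr2:10122489-10122788, plus strand) had the largest falls of the members on the log2(FPKM + 1) scale, and their capitals are CCAAT boxes, 2 and 3 in number. CDC6 (chr17:40287629-40287928, plus strand) and MCM7 (chr7:100101348-100101647, minus strand) had the largest falls on that scale among the members whose first window held E2F letters, a pair chosen after the values were seen. The E2F match of CDC6 begins at base 258 of the window, and those of MCM7 at base 64, on the opposite strand, and base 242. Their other capitals are CCAAT boxes, the last of MCM7 sharing a base with its E2F match. ORC4 (chr2:148021502-148021801, minus strand) and ORC5 (chr7:104207964-104208263, minus strand) had the rise and the smallest fall past the threshold, and hold none of these letters in the window shown.
MCM10: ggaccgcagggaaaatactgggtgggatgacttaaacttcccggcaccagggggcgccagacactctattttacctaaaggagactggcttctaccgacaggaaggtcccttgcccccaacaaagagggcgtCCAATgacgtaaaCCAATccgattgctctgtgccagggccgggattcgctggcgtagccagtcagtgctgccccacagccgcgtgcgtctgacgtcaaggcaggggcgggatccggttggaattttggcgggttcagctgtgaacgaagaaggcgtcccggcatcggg
RRM2: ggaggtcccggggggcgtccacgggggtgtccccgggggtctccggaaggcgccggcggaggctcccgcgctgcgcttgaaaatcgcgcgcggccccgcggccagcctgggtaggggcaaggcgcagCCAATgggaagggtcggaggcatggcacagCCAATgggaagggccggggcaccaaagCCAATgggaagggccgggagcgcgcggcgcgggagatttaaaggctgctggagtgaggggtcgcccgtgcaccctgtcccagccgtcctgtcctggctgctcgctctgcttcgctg
CDC6: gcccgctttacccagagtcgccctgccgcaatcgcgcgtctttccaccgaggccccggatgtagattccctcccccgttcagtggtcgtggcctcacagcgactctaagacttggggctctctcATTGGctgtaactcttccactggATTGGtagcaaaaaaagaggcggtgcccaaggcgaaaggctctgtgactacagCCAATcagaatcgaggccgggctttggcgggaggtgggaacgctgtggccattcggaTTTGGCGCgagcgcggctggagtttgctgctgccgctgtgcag
MCM7: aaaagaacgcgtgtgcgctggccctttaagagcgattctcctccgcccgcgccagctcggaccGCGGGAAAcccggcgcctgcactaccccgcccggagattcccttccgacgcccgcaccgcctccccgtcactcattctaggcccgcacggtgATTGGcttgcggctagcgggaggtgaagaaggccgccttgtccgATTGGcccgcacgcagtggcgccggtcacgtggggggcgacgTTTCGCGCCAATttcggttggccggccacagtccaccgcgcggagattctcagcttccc
ORC4: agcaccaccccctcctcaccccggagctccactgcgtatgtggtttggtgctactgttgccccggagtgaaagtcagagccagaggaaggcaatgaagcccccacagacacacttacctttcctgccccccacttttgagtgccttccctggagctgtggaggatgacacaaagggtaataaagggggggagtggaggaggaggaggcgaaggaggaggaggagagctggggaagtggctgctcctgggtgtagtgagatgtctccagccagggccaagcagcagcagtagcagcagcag
ORC5: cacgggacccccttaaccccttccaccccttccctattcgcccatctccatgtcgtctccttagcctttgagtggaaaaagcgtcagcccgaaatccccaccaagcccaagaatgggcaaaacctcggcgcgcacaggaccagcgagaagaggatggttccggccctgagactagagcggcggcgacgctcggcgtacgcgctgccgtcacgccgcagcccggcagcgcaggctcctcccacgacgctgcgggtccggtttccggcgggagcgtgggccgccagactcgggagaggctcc

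E2F letters were found in a window of 22 of the 44 members (50%), against 6.79% of the 9407 tested genes with a window and 3.31% of all 35116 windows. They were present in MCM2, MCM3, MCM6, MCM7 and MCM8, in CDC6, CDT1 and GMNN, in GINS1, GINS2 and GINS3, and in PCNA, RFC3, POLA1, POLA2, POLE, POLE2, LIG1, CDC7, TYMS, DUT and ORC3. The median log2 change was -2.16 for the 22 members with the letters and -1.82 for the 22 without, and both sets held strong falls (CDC6 -3.41, MCM10 -3.50) and members that hardly moved (ORC3 -0.27, RRM1 0.02). CCAAT boxes were found in 25 members (56.8%) against 43.4% of tested genes and 34.6% of windows. The CHR element was in 4 members (9.09%) against 13.7% and 15.2%. Forkhead letters, the kind FOXO factors bind, were in 4 members (9.09%), MCM7, PRIM2, TK1 and DUT, against 6.35% of tested genes and 7.43% of windows. Per window, over the 61 windows of the members, 36.1% held E2F letters and 49.2% CCAAT boxes, against 3.31% and 34.6% of all windows. The CHR element was in 6.56% and forkhead letters in 8.20% of the member windows, against 15.2% and 7.43%. A match describes letters in a window and is not a measured binding site, and a missing match says only that these letters are absent from the window.

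**Figure D3:**
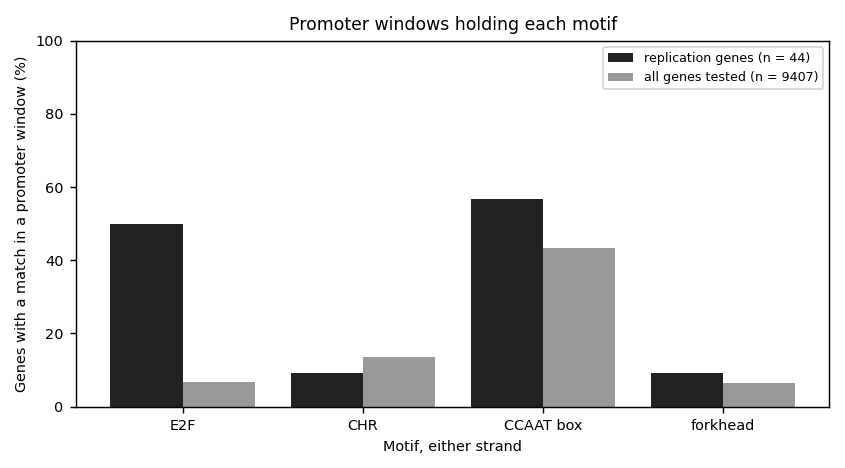
Share (%) of the 44 replication genes and of the 9407 tested genes with a RefSeq promoter window in which a window holds each motif on either strand. E2F letters stand out, at 50% of the replication genes and 6.79% of all, whereas the shares for forkhead letters are 9.09% and 6.35%.

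The MCM2-7 helicase, the ring that unwinds DNA at the fork, fell in all of its 6 subunits (median log2 change -2.81, range -3.18 to -1.60). MCM7, the most abundant subunit in Cont, was at 249.7, 245 and 218 FPKM in Cont replicates 1 to 3 and 25.8, 22.5 and 27.9 in Dox replicates 1 to 3. The groups lay far apart, 9.35-fold by the means (log2 change -3.18, SE 0.09, limma adjusted p = 2.30e-09). MCM3 was at 92.8, 95.7 and 73.01 in Cont and 9.69, 8.40 and 8.65 in Dox, 9.78-fold lower, with every Dox value under 10. MCM2 was at 48.96, 46.9 and 43.7 and 4.45, 4.99 and 6.17, 8.94-fold lower, and remained the least abundant subunit. MCM4 fell from 188 ± 13.1 to 28.6 ± 0.373 (SD, n = 3) and MCM5 from 57.3 ± 5.95 to 9.59 ± 0.973. MCM6 fell least, with 77.97, 74.7 and 60.9 FPKM in Cont and 24.3, 21.5 and 22.1 in Dox, 3.14-fold lower (log2 change -1.60, SE 0.10, limma adjusted p = 2.27e-07). Its Dox values still lay well under the Cont values. The order of the subunits changed with these unequal falls, from MCM7 above MCM4 in Cont to MCM4 at 28.6, MCM7 at 25.4 and MCM6 at 22.6 FPKM in Dox, where the values of MCM7 and MCM6 overlapped. The summed FPKM of the 6 subunits went from 687 ± 59.8 to 100.4 ± 4.78.

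MCM10 and MCM8 share the name but not the ring, and they marked the ends of the range within the MCM genes. MCM10, a scaffold that helps start the fork (chromosome 10, 13161554 to 13211104, GRCh38, GENCODE 29), was at 36.3, 38.2 and 31.4 FPKM in Cont and 2.18, 2.04 and 2.38 in Dox. This 16.05-fold difference was the largest fall of all members on the log2(FPKM + 1) scale, though not in the ratio of means (log2 change -3.50, SE 0.10, limma adjusted p = 1.85e-09). MCM8, a helicase known for its part in homologous recombination with MCM9, was at 18.9, 19.1 and 16.7 in Cont and 8.29, 8.25 and 10.3 in Dox. It fell 2.04-fold (log2 change -0.96, SE 0.10, limma adjusted p = 1.12e-05), so that relative to the geometric mean of MCM2 to MCM7 its ratio went from 0.187, 0.192 and 0.197 in the Cont libraries to 0.602, 0.624 and 0.698 in the Dox libraries, with no overlap.

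The origin recognition complex, which marks origins and serves as the platform for loading, was the subgroup that changed least as a whole and the most divided. Of its 6 genes, 3 fell, 1 rose and 2 did not pass (median log2 change -0.29). ORC1, the subunit whose protein is turned over during the cycle (chromosome 1, 52372829 to 52404459), was at 12.9, 13.7 and 13.8 FPKM in Cont and 0.827, 0.602 and 0.590 in Dox. It was the lowest member in every Dox library, 20.04-fold below Cont by the ratio of means, the largest such ratio of the members (log2 change -3.12, SE 0.10, limma adjusted p = 3.66e-09). All 3 Dox values lay under the filter level of 1 FPKM, so ORC1 passed the filter through its Cont values alone. For such a gene the direction and the lack of overlap follow from the filter, and its call is a description. It also led the falls with a pseudocount of 0.1 and on the deposited log2 values. ORC4, an ATPase subunit of the ring (chromosome 2, 147930397 to 148021604), went the other way, with 15.6, 16.4 and 13.8 FPKM in Cont and 44.5, 41.9 and 37.5 in Dox. All 3 Dox values were above all Cont values, 2.71-fold by the means (log2 change 1.38, SE 0.09, limma adjusted p = 3.44e-07), the only rise among the 50. ORC2 fell from 16.5, 15.1 and 15.8 to 6.77, 6.55 and 5.85 (log2 change -1.19, SE 0.08, limma adjusted p = 6.46e-07).

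The other ORC genes moved little. ORC6, the smallest subunit and the most abundant ORC transcript here, was at 75.5, 75.6 and 63.9 FPKM in Cont and 64.6, 64.7 and 74.7 in Dox, overlapping ranges with a 95% interval of the log2 change of -0.28 to 0.13 (limma adjusted p = 0.457). ORC3 was at 17.2, 19.6 and 15.00 and 11.5, 14.7 and 16.4, also overlapping (interval -0.57 to 0.03, limma adjusted p = 0.0855). It passed as lower without Cont replicate 3 (limma adjusted p = 0.0422) or without Dox replicate 3 (limma adjusted p = 0.0313). ORC5 was at 30.3, 30.1 and 24.9 and 25.2, 19.9 and 23.4, overlapping by 1 Dox library, and passed with a small fall (log2 change -0.30, SE 0.11, limma adjusted p = 0.0239). That call ended in TPM (limma adjusted p = 0.103), under median-of-ratios scaling (0.144) and quantile normalization (0.126), nuclear TPM (0.754), and without Cont replicate 1 (0.0830), Cont replicate 2 (0.0821) or Dox replicate 2 (0.0968). ORC6 turned to a rise in nuclear TPM (log2 change 0.20, limma adjusted p = 0.0362).

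Genes next to ORC4 rose as well. In GENCODE 29 the span of ORC4 overlaps ACVR2A by 430 bases at one end and MBD5 by 594 bases at the other, both on the opposite strand. ACVR2A, an activin receptor gene, stood at 15.6 ± 1.000 FPKM in Cont and 60.7 ± 5.88 in Dox (SD, n = 3; log2 change 1.89, SE 0.09, limma adjusted p = 3.45e-08). MBD5, a methyl-CpG binding domain gene, went from 49.6 ± 2.82 to 352 ± 20.5 (log2 change 2.80, SE 0.07, limma adjusted p = 1.60e-09). The counting is not stated to use strand, so reads in the shared bases cannot be told apart, and their part in the ORC4 value was not tested. RPA3 in the same way shares 77897 bases of its span with UMAD1, which rose from 21.01 ± 1.71 to 32.2 ± 1.12 (log2 change 0.60, SE 0.08, limma adjusted p = 5.68e-05). In all, 20 of the 50 members overlap a gene on the other strand, and 10 share their name with annotated pseudogenes, DUT with 8 and PCNA, RPA2 and RRM2 with 3 each, so their values are less certain.

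The licensing factors fell strongly as a set, the loader and its inhibitor alike (3 of 3, median log2 change -3.00). CDC6, the ATPase that joins ORC to load the helicase (chromosome 17, 40287633 to 40304657), was at 37.9, 35.8 and 34.2 FPKM in Cont and 2.72, 2.51 and 2.23 in Dox. The Dox values were 14.4-fold lower by the means (log2 change -3.41, SE 0.09, limma adjusted p = 1.60e-09). CDT1, which brings MCM2-7 to the origin, was at 35.3, 36.3 and 29.97 in Cont and 3.37, 3.08 and 3.54 in Dox, 10.2-fold lower (log2 change -3.00, SE 0.10, limma adjusted p = 3.76e-09). GMNN, the gene of geminin, the inhibitor of CDT1, was at 59.1, 54.9 and 48.3 in Cont and 8.27, 8.22 and 10.5 in Dox, 6.01-fold lower (log2 change -2.46, SE 0.11, limma adjusted p = 2.63e-08). CDT1 fell further than its inhibitor, and the ratio of CDT1 to GMNN was 0.596, 0.662 and 0.621 in Cont and 0.408, 0.375 and 0.337 in Dox.

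Genes of origin firing and of the active helicase were all lower, by less than the licensing factors for most of them. CDC45, the helicase cofactor, was at 28.8, 31.8 and 21.3 FPKM in Cont and 4.48, 3.76 and 4.57 in Dox (log2 change -2.41, SE 0.14, limma adjusted p = 1.45e-07), and the Cont values spread by a larger factor than those of its neighbours in the pathway. CDC7, the firing kinase, was at 11.6, 11.99 and 11.9 and 4.53, 3.33 and 2.88, 3.30-fold lower (log2 change -1.50, SE 0.13, limma adjusted p = 2.14e-06). Its activator DBF4 was at 21.8, 22.1 and 21.3 and 10.9, 8.01 and 7.92, 2.43-fold lower (log2 change -1.21, SE 0.11, limma adjusted p = 4.68e-06). The kinase and its activator moved close together, and the ratio of CDC7 to DBF4 still dropped, from 0.534, 0.543 and 0.559 to 0.416, 0.416 and 0.364. GINS, a complex of 4 subunits, fell in all of them (median log2 change -1.91). GINS2 fell most, from 42.1, 43.5 and 34.3 to 5.26, 4.36 and 6.37 FPKM (log2 change -2.70, SE 0.13, limma adjusted p = 4.45e-08). GINS1 fell from 41.5 ± 2.97 to 8.66 ± 2.84 (SD, n = 3), with Dox replicate 3 at 11.9 above the other 2 Dox libraries. GINS3 fell from 25.3 ± 2.23 to 7.43 ± 1.44 and GINS4 from 62.1 ± 0.779 to 22.6 ± 2.86, the least of the 4 (2.75-fold). The levels of the subunits drew apart, with a highest to lowest ratio of 2.47 ± 0.192 in Cont and 4.27 ± 0.345 in Dox.

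The replicative polymerases were lower in all 10 listed subunits, by 2.28 to 6.46-fold in the ratio of means. The subunit genes POLD4 and POLE4, no members of the list, moved less. POLD4 did not pass the test (log2 change 0.07, limma adjusted p = 0.64), and POLE4 fell 1.22-fold (log2 change -0.28, limma adjusted p = 0.0178). Polymerase alpha with primase, which lays down primers, had a median log2 change of -1.90. The primase gene PRIM1 was at 7.81, 7.22 and 7.03 FPKM in Cont and 1.07, 0.969 and 1.37 in Dox, 6.46-fold lower (log2 change -1.97, SE 0.11, limma adjusted p = 9.51e-08). PRIM2, the large primase subunit, fell from 33.9 ± 2.21 to 8.29 ± 0.916 and POLA1, the catalytic subunit, from 18.8 ± 1.93 to 4.32 ± 0.339 (SD, n = 3). POLA2, the accessory subunit and the least abundant member in Cont, was at 3.16, 2.85 and 2.55 and 1.41, 1.07 and 1.02. Its fall was 2.44-fold by the means, and its log2 change of -0.83 (limma adjusted p = 9.63e-05) is held down by the added 1 at such low values.

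Polymerase delta, which copies the lagging strand, fell in its 3 listed subunits (median log2 change -1.53). POLD1, the catalytic subunit, fell from 27.2 ± 2.45 to 6.15 ± 0.429 FPKM (SD, n = 3; log2 change -1.98, SE 0.09, limma adjusted p = 3.25e-08), POLD2 from 106 ± 8.70 to 36.1 ± 2.52 and POLD3 from 86.6 ± 7.60 to 30.4 ± 0.425. The ratio of POLD3 to POLD1 rose from 2.95, 2.84 and 3.85 to 5.04, 5.33 and 4.53, with no overlap. In polymerase epsilon, of the leading strand, the catalytic subunit gene POLE was at 67.3, 71.3 and 84.99 in Cont and 32.8, 31.98 and 33.2 in Dox, 2.28-fold lower (log2 change -1.16, SE 0.09, limma adjusted p = 1.10e-06). The Dox values were nearly equal, whereas Cont replicate 3 stood above the other Cont libraries, against the pattern of most members. POLE2 fell further, from 51.5 ± 3.72 to 10.8 ± 1.01, and POLE3, a histone-fold subunit shared with a chromatin remodeller, fell from 55.5 ± 2.73 to 21.4 ± 1.55. The ratio of POLE3 to POLE overlapped between groups, at 0.826, 0.817 and 0.621 in Cont and 0.683, 0.614 and 0.668 in Dox.

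The sliding clamp and its loader fell in all 6 genes (median log2 change -2.37), with the large loader subunit apart from the rest. PCNA, the clamp that holds polymerases on DNA, was at 284, 279 and 209 FPKM in Cont and 36.4, 37.7 and 39.7 in Dox. The lowest Cont library was still over 5 times the highest Dox library, and the fall was 6.78-fold by the means (log2 change -2.72, SE 0.11, limma adjusted p = 1.72e-08). RFC5 was at 98.4, 110.0 and 89.8 and 10.97, 13.6 and 14.9, the largest fall of the loader (log2 change -2.83, SE 0.11, limma adjusted p = 1.46e-08). RFC3 fell from 28.1 ± 2.77 to 4.35 ± 0.459 (SD, n = 3), RFC4 from 43.96 ± 1.38 to 8.18 ± 1.35 and RFC2 from 76.98 ± 7.79 to 27.7 ± 2.13. RFC1, the large subunit found only in the replicative form of the loader, was at 20.6, 20.99 and 19.3 in Cont and 14.2, 12.4 and 13.8 in Dox. It fell 1.51-fold with no overlap (log2 change -0.56, SE 0.08, limma adjusted p = 1.10e-04). The ratio of RFC1 to the geometric mean of RFC2 to RFC5 was 0.375, 0.349 and 0.378 in the Cont libraries and 1.45, 1.21 and 1.17 in the Dox libraries. The ratio thus passed from below to above 1, although RFC2 stayed above RFC1 in every Dox library.

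RPA, the trimer that coats single-stranded DNA, fell in its large and middle subunits, while the small one did not pass the test. RPA1 was at 342, 334 and 303 FPKM in Cont and 89.9, 93.6 and 112 in Dox, 3.32-fold lower (log2 change -1.72, SE 0.09, limma adjusted p = 8.34e-08). RPA2 was at 50.8, 55.1 and 43.3 and 17.5, 13.4 and 18.04, 3.05-fold lower (log2 change -1.55, SE 0.12, limma adjusted p = 1.36e-06). RPA3 was at 14.4, 15.7 and 13.1 and 15.4, 12.98 and 13.6, with overlapping groups and a 95% interval of -0.25 to 0.18 (limma adjusted p = 0.724). It passed as higher in nuclear TPM (log2 change 0.23, limma adjusted p = 0.0409). The ratio of RPA1 to RPA3 fell from 23.8, 21.2 and 23.1 to 5.84, 7.21 and 8.21, which does not depend on scaling. The part of UMAD1, which overlaps RPA3 and rose, in the RPA3 value was not tested.

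The enzymes that finish Okazaki fragments were both lower. FEN1, the flap nuclease, was at 75.2, 72.7 and 67.3 FPKM in Cont and 10.2, 7.72 and 12.3 in Dox, 7.11-fold lower (log2 change -2.73, SE 0.14, limma adjusted p = 5.28e-08). LIG1, the ligase that seals the nick, was at 31.7, 32.8 and 25.9 and 6.14, 5.99 and 7.15, 4.69-fold lower (log2 change -2.06, SE 0.11, limma adjusted p = 6.84e-08). The ratio of PCNA to FEN1, its binding partner, overlapped between groups, at 3.78, 3.84 and 3.10 in Cont and 3.55, 4.88 and 3.23 in Dox.

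Nucleotide supply held one of the strongest falls and also the most abundant member, which did not pass the test. RRM2, the small subunit of ribonucleotide reductase that limits the enzyme in cycling cells (chromosome 2, 10120698 to 10131419), was at 40.7, 41.4 and 34.2 FPKM in Cont and 3.02, 2.53 and 2.43 in Dox. The Dox values were 14.6-fold lower by the means (log2 change -3.44, SE 0.10, limma adjusted p = 2.79e-09). RRM1, the large subunit (chromosome 11, 4094707 to 4138876), was at 441, 442 and 392 in Cont and 394, 389 and 518 in Dox. The groups overlapped, with Dox replicate 3 above and the other 2 Dox libraries near the lowest Cont library (95% interval of the log2 change -0.23 to 0.27, limma adjusted p = 0.887). It passed as higher after quantile normalization (0.36, limma adjusted p = 0.0197) and in nuclear TPM (0.30, limma adjusted p = 0.0230). The ratio of RRM2 to RRM1 went from 0.0922, 0.0938 and 0.0872 to 0.00766, 0.00651 and 0.00470.

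The thymidylate enzymes fell as well. TYMS, thymidylate synthase, was at 34.5, 35.2 and 29.5 FPKM in Cont and 2.49, 2.89 and 3.65 in Dox, 10.98-fold lower (log2 change -3.09, SE 0.12, limma adjusted p = 1.07e-08). TK1, the salvage kinase, was at 332, 332 and 269.6 and 45.8, 53.3 and 72.9, 5.43-fold lower (log2 change -2.44, SE 0.15, limma adjusted p = 2.68e-07), with Dox replicate 3 the highest of its group. The synthase fell further than the salvage enzyme, the ratio of TYMS to TK1 being 0.104, 0.106 and 0.109 in Cont and 0.0545, 0.0541 and 0.0501 in Dox. DUT, the dUTPase that keeps uracil out of DNA, was at 185, 209 and 142 and 41.5, 43.1 and 44.8, 4.14-fold lower (log2 change -2.01, SE 0.12, limma adjusted p = 2.31e-07). RRM2B, the alternative small subunit of the reductase and no member of the list, rose from 9.83 ± 0.0518 to 40.8 ± 2.24 (SD, n = 3; log2 change 1.95, SE 0.07, limma adjusted p = 8.63e-09). The 2 small subunits changed places, the ratio of RRM2 to RRM2B being 4.13, 4.20 and 3.50 in Cont and 0.0747, 0.0586 and 0.0627 in Dox.

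**Figure D4:**
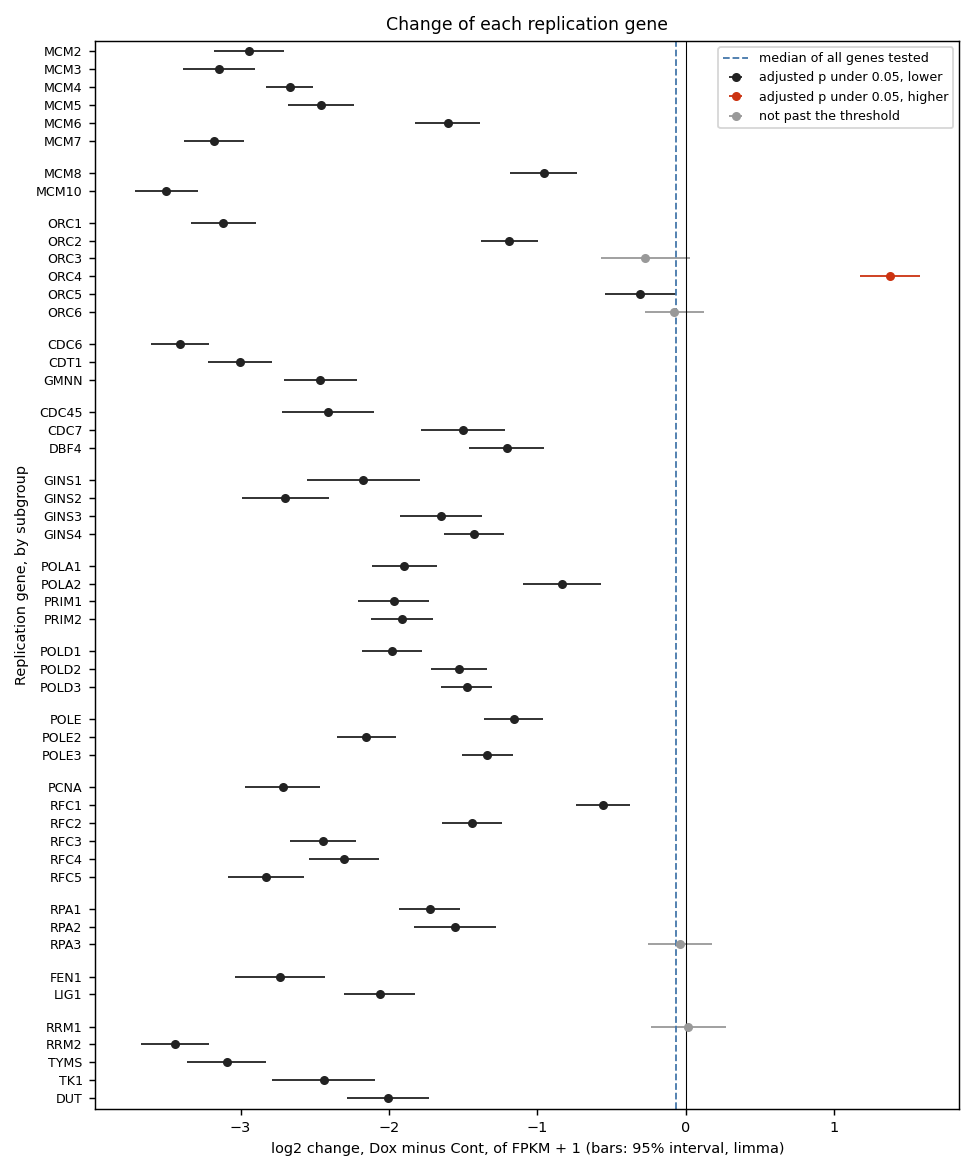
Log2 change of FPKM + 1, Dox minus Cont, for each replication gene, with the 95% interval of limma; the dashed line is the median of all genes tested (-0.06). The falls run from -3.50 (MCM10) to -0.30 (ORC5), ORC4 is at 1.38, and the intervals of ORC3, ORC6, RPA3 and RRM1 include 0.

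Within a library the ratio of a pair of genes does not depend on how the library was scaled. Of the 13 ratios computed, 11 did not overlap between groups, and the same number did not overlap with 1 FPKM added to each gene. Lack of overlap was common: of single genes tested, 43.7% lay wholly lower and 38.4% wholly higher in Dox. No share over other pairs of genes was computed, and the pairs were chosen with earlier results known, so the count is a description. The helicase was set against its platform by the ratio of the geometric mean of MCM2 to MCM7 to that of ORC2 to ORC5, which was 5.29, 5.07 and 5.01 in the Cont libraries and 0.801, 0.787 and 0.863 in the Dox libraries. The geometric mean of the MCM subunits was thus the higher of the 2 in each Cont library and the lower in each Dox library. The ratio of ORC1 to ORC4 went from 0.830, 0.836 and 1.000 to 0.0186, 0.0144 and 0.0157, a pair of genes at like levels in Cont. With 1 FPKM added to both genes the Dox ratios were 0.0401, 0.0373 and 0.0413, so the ratio fell 22.6-fold by the means in place of 54.8-fold. With 3 libraries against 3, an exact two-sided permutation test of a ratio cannot go below p = 0.10, so none is given.

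Subunits of a complex did not fall in proportion. Over the subunits that are members, levels drew apart in 5 of the 8 complexes compared. The highest over the lowest subunit in ORC was 5.33 ± 0.635 in Cont and 104 ± 24.4 in Dox (SD, n = 3), with ORC6 highest and ORC1 lowest in both groups. The Dox ratio rests on ORC1 at 0.673 ± 0.134 FPKM, below the filter level of 1 FPKM. For ORC2 to ORC5 alone the ratio was 1.91 ± 0.1002 in Cont and 6.46 ± 0.0960 in Dox, where ORC4 was highest. The part of the genes overlapping ORC4 in that value was not tested. The highest over the lowest subunit was 4.89 ± 0.308 in Cont and 6.40 ± 0.467 in Dox for RFC. For polymerase delta it was 3.90 ± 0.124 in Cont and 5.87 ± 0.177 in Dox, and for polymerase epsilon 1.45 ± 0.235 in Cont and 3.04 ± 0.245 in Dox. It narrowed in RPA, with 22.7 ± 1.34 in Cont and 7.08 ± 1.19 in Dox, and in polymerase alpha with primase, with 11.99 ± 1.81 in Cont and 8.10 ± 0.502 in Dox. RPA3 was the lowest RPA subunit in both groups, and the part of the overlapping UMAD1 in its value was not tested. MCM2-7 kept its spread within the error, at 5.11 ± 0.123 in Cont and 5.60 ± 0.929 in Dox, the only complex whose groups overlapped. Polymerases delta and epsilon were compared without POLD4 (3.07 ± 0.540 FPKM in Cont and 3.29 ± 0.674 in Dox) and POLE4 (24.2 ± 1.39 and 19.7 ± 2.20). In Cont each lay below every listed subunit of its complex, so the widening of delta and epsilon holds for the listed subunits only.

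**Figure D5:**
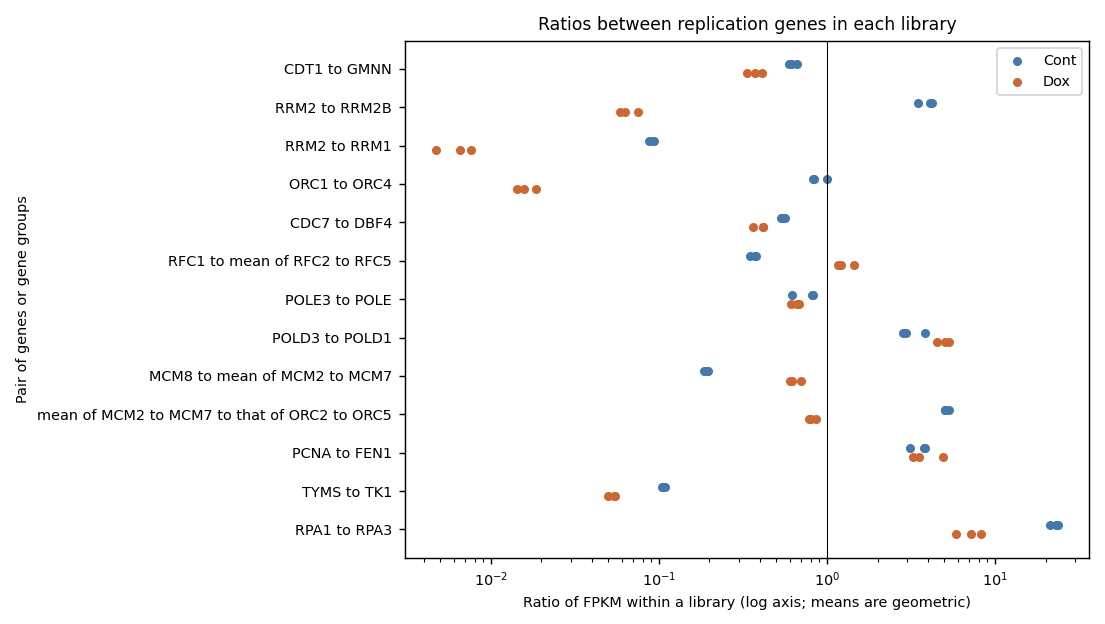
Ratios of FPKM between replication genes within each library (log axis, means geometric), 1 point per library. The Cont and Dox points separate for 11 of the 13 ratios and overlap for POLE3 to POLE and PCNA to FEN1.

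Replicates differed among themselves in a shared direction. Cont replicate 3 was the lowest of the Cont libraries in 44 of the 50 members, against 46.4% of all genes tested, and Dox replicate 3 was the highest of the Dox libraries in 30, against 39.2%. Cont replicate 3 also had the largest mitochondrial share of its group, 4.67% against 2.999 and 3.52%, whose part in this was not tested. Without Cont replicate 3, where ORC1 missed the filter and ORC3 passed as lower, 45 of the 49 members tested were lower and 1 higher, and without Dox replicate 3, 46 and 1. These differences within groups were small beside those between groups, as with PCNA, at 209 FPKM in Cont replicate 3 and 39.7 in Dox replicate 3.

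Other genes of the same process, 74 in a list beside the members, were mostly lower too. Of the 73 tested, 62 fell, 7 rose and 4 did not pass (median log2 change -1.11), and 17 fell at least 4-fold. Over all genes tested the shares were 42.8% lower, 37.6% higher and 3.76% lower by at least 4-fold, and the counts of the sublists below stand against the same shares. All 10 tested initiation genes fell, the largest being RECQL4 (-1.89), TOPBP1 (-1.67), DONSON (-1.57) and MCMBP (-1.45). MCMDC2 missed the filter. Of 18 fork genes, 16 fell, with CDCA5, the gene of the cohesin protector sororin, from 144 ± 2.52 to 18.5 ± 6.35 FPKM (SD, n = 3), the checkpoint mediator CLSPN (-2.21), TIMELESS (-2.18) and DSCC1 (-1.94). ATAD5, which unloads PCNA from DNA, rose from 9.95 ± 0.0504 to 38.1 ± 4.44 (log2 change 1.83, SE 0.09, limma adjusted p = 4.76e-08), while POLD4 did not pass (3.07 ± 0.540 and 3.29 ± 0.674). All 8 genes that rebuild chromatin behind the fork fell, with UHRF1, which guides the maintenance of DNA methylation, from 38.8 ± 4.73 to 2.63 ± 0.0454 (-3.45), ASF1B (-2.57), CHAF1B (-2.08) and CHAF1A (-1.94).

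Of 13 further nucleotide supply genes, 8 fell and 3 rose. The falls were led by the dCTP pyrophosphatase DCTPP1 (-2.41), the kinases NME1 (-2.40) and DCK (-2.29), and SHMT1 (-1.94). The rises were RRM2B, the mitochondrial thymidine kinase TK2 from 27.5 ± 3.48 to 56.98 ± 1.76 FPKM (SD, n = 3; 1.03) and the dNTP hydrolase SAMHD1 from 13.4 ± 0.468 to 25.7 ± 0.570 (0.89). DCTD and UNG did not pass, at 23.1 ± 2.46 and 22.01 ± 0.458 and at 36.3 ± 6.55 and 30.6 ± 2.72. NME1 and NME2 are near-identical neighbours, so their values are uncertain.

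Among 24 regulators of S phase entry, 20 fell and 3 rose. The falls were led by DTL (-3.03), a substrate receptor that marks CDT1 for destruction, the repressor E2F8 (-2.78), CCND1 (-2.68) and CCNA2 (-2.57). E2F1 fell from 50.8 ± 3.18 to 11.1 ± 1.39 FPKM (SD, n = 3; log2 change -2.10, SE 0.10, limma adjusted p = 3.11e-08). The rises were those of RB1, the pocket protein that holds E2F in check, from 14.4 ± 0.415 to 30.1 ± 0.388 (log2 change 1.02, SE 0.07, limma adjusted p = 3.77e-07), of RBL2 from 48.8 ± 3.73 to 70.5 ± 0.792 (0.52) and of TFDP2 (0.48). DDB1 did not pass, at 97.2 ± 0.352 and 106 ± 8.33. All 8 proliferation genes taken for context fell, AURKB (-3.42) and CDC20 (-2.86) the most. Of 6 quiescence genes with values, 5 rose, CDKN2C (1.80) and BTG1 (1.52) the most, and CDKN1A was at 51.8 ± 2.56 and 46.8 ± 6.02 (limma adjusted p = 0.16). Among all genes tested, 42.8% were lower and 37.6% higher.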

How the data were processed

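RNA was captured by poly(A), per the labels' protocols, in 3 Cont and 3 Dox samples. The authors deposited 1 table of log2 FPKM values for 13117 gene symbols. Its scale was read from the values, which run from -8.59 to 13.9 with a lowest value per gene that stands for 0 reads plus an offset of 1.58 to 2.62 reads. FastQC 0.11.7 and GRCh38 are named per the submitters' processing notes. The aligner, counter, annotation and strand setting are not given in the sources used here. Columns were matched to samples by title, because one Cont description names another Cont column, within the same group.

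The deposited log2 values were turned back into FPKM. All genes were fitted together on log2(FPKM + 1), a pseudocount of 1, by limma 3.58.1 (R 4.3.3) with a mean-variance trend, two-sided tests and Benjamini-Hochberg adjustment over the 11526 genes that reached 1 FPKM in 3 or more libraries. The threshold was an adjusted p under 0.05. The fit was tested on simulated data. Such changes understate those of low genes. Folds are ratios of mean FPKM. Intervals are 95% intervals of limma. Gene positions are those of GENCODE 29. The members, gene lists, ratios and motifs were chosen with earlier results of these data known, so counts over them are descriptions. All 50 members were named, and of the other lists the largest changes in each direction and those that did not pass. E2F1 and POLE4 were given outside this rule. Alternatives were other pseudocounts, filters and scalings, no trend, a replicate block and each library left out.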

Additional observations from a re-analysis of the deposited data

How the results depend on the processing

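Of the 796 values that 16 alternatives gave for the members, 13 changed their call, all in ORC3, ORC5, ORC6, RPA3 or RRM1. The number of members called higher went from 1 to 2 under quantile normalization and to 4 in nuclear TPM, where ORC6 turned to a log2 change of 0.20 and RPA3 to 0.23. Signs that did not pass also varied: ORC6 was above 0 after quantile normalization, in TPM and under median-of-ratios scaling, RPA3 there and without Cont replicate 2 or Dox replicate 2, and RRM1 was below 0 without Cont replicate 3 or Dox replicate 3. The number called lower lay between 43 and 46 in every setting, with ORC1 below the filter and so untested without any 1 Cont library and POLA2 at a filter of 5 FPKM, and all 13 subgroup medians stayed below 0, that of ORC at -0.02 in nuclear TPM. Leaving out 1 library gave 8319 to 9118 calls over the table in place of 9265 and 43 to 46 members lower. With the replicate number as a block, 9272 genes and the same numbers of members, 45 lower and 1 higher, were called. Whether the numbers pair the samples was not settled. Same-numbered Cont and Dox libraries had correlations of their deviations across genes of 0.0371, -0.00483 and 0.0793. Cont replicates 1 and 3 correlated best with the Dox library of their own number, and Cont replicate 2 with Dox replicate 1 (0.0924). Correlations this near 0 can neither show nor exclude a pairing. Depth limits mainly ORC1, PRIM1 and POLA2 in Dox.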

Other observations

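The E2F letters described for the members were also read over the whole table. Of the 639 tested genes with the letters in a promoter window, 49.5% were lower and 30.7% higher in Dox (limma adjusted p under 0.05), against 42.9% and 37.7% of the 8768 genes without. Falls of at least 4-fold made up 6.42% and 3.47%. With the members and the other listed replication genes left out, those shares were 3.17% of 599 genes and 3.33% of 8705, and the medians of the log2 change were -0.18 and -0.06. The excess of strong falls among genes with the letters was not seen outside the lists. The lists were chosen with earlier results of these data known. Leaving them out took the strong falls with the letters from 41 of 639 genes to 19 of 599, so the loss of the excess is tied to that choice. Outside the lists, 46.4% of the genes with the letters were lower and 32.7% higher, against 42.6% and 37.9% of those without. These are descriptions of a letter match, with no test.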
